A study of Mus musculus with 2 samples.

Results

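Basophil and mast cell genes were described by 10 genes, *Cpa3*, *Mcpt8*, *Prss34*, *Fcer1a*, *Ms4a2*, *Hdc*, *Gzmb*, *Il1rl1*, *Cma1* and *Tpsb2*, which were taken by symbol from the 24421 genes counted in each library. All 10 were present in both count tables. RNA-seq had been performed on hematopoietic stem cells (HSCs), the marrow cells that renew themselves and feed every blood lineage. There was 1 library labelled WT, genotype Ezh2 +/+ CreERT+/-, and 1 labelled Ezh2 KO, of genotype Ezh2 Δ/Δ CreERT+/-, both on the C57BL/6 strain. Bone marrow of CD45.2 mice had been grafted into lethally irradiated CD45.1 hosts. Both groups carried Cre-ERT, a recombinase that works only in the presence of tamoxifen, and tamoxifen (100 µl of 10 mg/ml) was given on 5 days in each. Donor age and the number of animals behind a library were not given in the sources used here. HSCs were sorted 1 month later from the LSK cells (Lin-, Sca-1+, c-Kit+) by the presence of CD150 and the absence of CD48, CD34 and Flt3. *Ezh2* encodes the histone methyltransferase of Polycomb repressive complex 2, and the libraries were made to find genes that rise in HSCs without it. With 1 library in each group, no difference between the groups had a replicate check, and every interval below covers counting error only.

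Basophils and mast cells are rare granulocytes of allergy and of defense against parasites. Both carry the high-affinity receptor for immunoglobulin E (IgE), and both discharge granules that hold histamine and proteases when antigen crosslinks the IgE bound to it. Both arise from HSCs through progenitors that keep Kit and Gata2. Their granule proteases are usually taken as marks of commitment to these lineages, whereas parts of their signaling and transcription factor machinery are shared with stem and progenitor cells.

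Over all genes the WT library held 5763118 counts and the other 4157280, so that 3 counts, taken as a floor for folds, stood for 0.521 and 0.722 CPM (counts scaled to 1000000 over all genes). The targeted gene itself was no lower under the KO label. *Ezh2* had 166 counts in WT against 129, and its log2 ratio was 0.08 (95% interval, -0.27 to 0.42). The floxed exons were not given in the sources used here, and a count over the whole gene cannot show the loss of a part of the transcript. The libraries also differed in sex-linked RNA, with 801 and 4 counts of *Xist* and with 0 against 106 to 275 counts for the Y-linked *Ddx3y*, *Eif2s3y*, *Kdm5d* and *Uty*. Sex and genotype label thus cannot be told apart. All 11 HSC markers were detected in both libraries, with summed levels of 4460 and 4180 CPM, and *Mycn* alone of them was called, as lower.

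GATA factors are known regulators of basophil and mast cell genes. The letters before an annotated start are therefore shown for the members with more than 3 counts in a library. The search took the hexamer AGATAA, its variant AGATAG, and the like pair that begins with thymine, TGATAA with its variant TGATAG, on both strands in the 250 bases before each annotated start. RefSeq promoters (GRCm38.p6) were found for 9 of the 10 members, and *Tpsb2* had no entry in the table. Matches are printed in capitals, none of those shown overlapped another, and each window is written 5′ to 3′ on the strand of its gene.
Cpa3 (chr3:20242182-20242431, minus strand): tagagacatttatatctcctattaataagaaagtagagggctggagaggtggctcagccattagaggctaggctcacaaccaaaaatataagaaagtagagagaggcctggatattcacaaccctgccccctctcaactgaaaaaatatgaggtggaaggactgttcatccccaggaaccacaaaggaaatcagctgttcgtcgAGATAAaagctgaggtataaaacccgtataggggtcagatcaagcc
Prss34 (chr17:25298144-25298393, plus strand): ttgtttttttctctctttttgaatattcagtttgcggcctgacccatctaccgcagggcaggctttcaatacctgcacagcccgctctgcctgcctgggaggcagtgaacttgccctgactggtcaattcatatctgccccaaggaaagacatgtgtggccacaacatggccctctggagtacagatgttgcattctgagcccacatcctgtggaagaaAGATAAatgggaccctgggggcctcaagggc
Hdc (chr2:126618679-126618928, minus strand): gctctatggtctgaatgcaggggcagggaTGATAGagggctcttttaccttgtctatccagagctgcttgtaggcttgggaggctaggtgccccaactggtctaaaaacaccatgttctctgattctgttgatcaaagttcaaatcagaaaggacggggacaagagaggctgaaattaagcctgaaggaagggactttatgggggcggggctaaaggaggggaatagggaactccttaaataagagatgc
Il1rl1 (chr1:40429320-40429569, plus strand): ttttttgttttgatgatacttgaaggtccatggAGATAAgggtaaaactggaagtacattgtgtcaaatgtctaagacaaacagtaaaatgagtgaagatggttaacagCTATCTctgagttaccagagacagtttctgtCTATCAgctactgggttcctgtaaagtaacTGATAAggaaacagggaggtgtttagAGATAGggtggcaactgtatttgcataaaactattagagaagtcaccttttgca
*Cpa3* and *Prss34* each held 1 match, AGATAA, which began 46 and 31 bases before the start. *Hdc* held 1 match, 221 bases before its RefSeq start. The *Hdc* window lies inside the GENCODE M21 gene, whose start, at 126619299, is another one. *Il1rl1* has 2 starts in the table. The window printed, at the gene's first start, had 5 matches and that of its other start (chr1:40439379-40439628) had 1, while 1.35% of the 32851 promoters in the table had 3 or more. At least 1 match was present in 8 of the 10 windows of the 9 members, *Il1rl1* counted with both, beside 26.5% of all promoters. Of the members not printed, *Ms4a2*, at 0 counts in both libraries, had 3 matches. *Cma1*, at 0 counts in both, and *Fcer1a*, at 0 and 3 counts, had 1 match each. *Mcpt8* and *Gzmb* had no match in their windows. Matches were thus also present upstream of members with few or no counts. A match is a description of the sequence and not a bound site.

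The proteases among the members were at or under 3 counts in these HSCs, except for *Cpa3* in both libraries and *Prss34* in 1 of them. *Cpa3* encodes carboxypeptidase A3, a granule enzyme that is switched on early in both lineages (chr3:20215620-20242181, minus strand; positions are of the GENCODE M21 gene on GRCm38). It had 15 counts in WT against 16 in the Ezh2 KO-labelled library, that is 2.6 CPM (1.46 to 4.29, exact Poisson 95% interval) and 3.85 CPM (2.2 to 6.25). The intervals overlapped. The log2 ratio of normalised counts was 0.50 (-0.58 to 1.65, exact Clopper-Pearson 95% interval), an interval that holds equality as well as a 2-fold rise.

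*Prss34*, also known as mast cell protease 11, is a tryptase-like enzyme of basophils (chr17:25298394-25300165, plus strand). It had 0 counts in WT against 9 in the Ezh2 KO-labelled library, or 0 CPM (0 to 0.64) and 2.16 CPM (0.99 to 4.11). The intervals did not overlap. Set against a floor of 3 counts in the WT library, its normalised count was 4.07-fold higher in the Ezh2 KO-labelled library. That value is a ratio to the floor and not a lower limit that takes counting error into account. A pattern of 0 counts in WT with 9 or more in the other library was found for 65 genes, so it was not particular to *Prss34*.

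The other proteases gave few reads or none. *Mcpt8* (chr14:56082166-56085273, minus strand), a basophil protease of the granzyme family, had 0 and 2 counts, both under the floor, and no fold was formed. *Cma1* (chr14:55941451-55944675, minus strand) and *Tpsb2* (chr17:25366305-25369098, plus strand), a chymase and a tryptase of connective tissue mast cells, had 0 counts in both libraries. *Gzmb* (chr14:56258838-56262260, minus strand), which encodes granzyme B of cytotoxic lymphocytes and is also made by mast cells and basophils, had 0 counts in both as well. For these genes the exact Poisson 95% interval of a count of 0 reached 0.64 CPM in WT and 0.887 CPM in the other library, so a level under those limits cannot be told from none at this depth.

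The IgE-binding part of the receptor was not detected above the floor. *Fcer1a* (chr1:173221284-173227214, minus strand), the α chain that binds IgE, had 0 counts in WT and 3 in the Ezh2 KO-labelled library, which is the floor itself. *Ms4a2* (chr19:11615523-11623719, minus strand), the β chain that amplifies the signal, had 0 counts in both. The γ chain gene *Fcer1g*, which serves other Fc receptors as well and was added here after its values were seen, had 121 and 170 counts, or 21 and 40.9 CPM. Its log2 ratio was 0.93 (0.59 to 1.28), short of 2-fold. RNA for the shared chain was thus present in both libraries, where that for the chains particular to the IgE receptor was at or under 3 counts.

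*Hdc* encodes histidine decarboxylase, the enzyme that makes histamine, and has also been used to mark a myeloid-biased subset of HSCs (chr2:126593667-126619299, minus strand). Of the 10 members it had the most counts, with 30 in WT against 36 in the Ezh2 KO-labelled library. These were 5.21 CPM (3.51 to 7.43) and 8.66 CPM (6.07 to 12). The intervals overlapped, and the log2 ratio was 0.68 (-0.04 to 1.45), which includes equality.

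*Il1rl1* encodes ST2, the receptor for interleukin 33 on mast cells, basophils and type 2 innate lymphoid cells (chr1:40429570-40465415, plus strand). It went the other way from *Prss34*, with 5 counts in WT and 0 in the Ezh2 KO-labelled library, or 0.868 CPM (0.282 to 2.02) and 0 CPM (0 to 0.887). These intervals overlapped. With the floor used in the Ezh2 KO-labelled library, the level there was 1.23-fold lower, which is likewise no lower limit of counting error. The gene did not reach the mean of 1 CPM that was asked of genes to be compared. The 8 markers of type 2 innate lymphoid cells summed to 136 and 140 CPM, most of it from *Gata3* (98.4 and 92.6 CPM) and *Rora* (36.6 and 46.4 CPM), which are not limited to these cells. *Klrg1* and *Areg* of that list were at 0 counts in both.

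**Figure D1:**
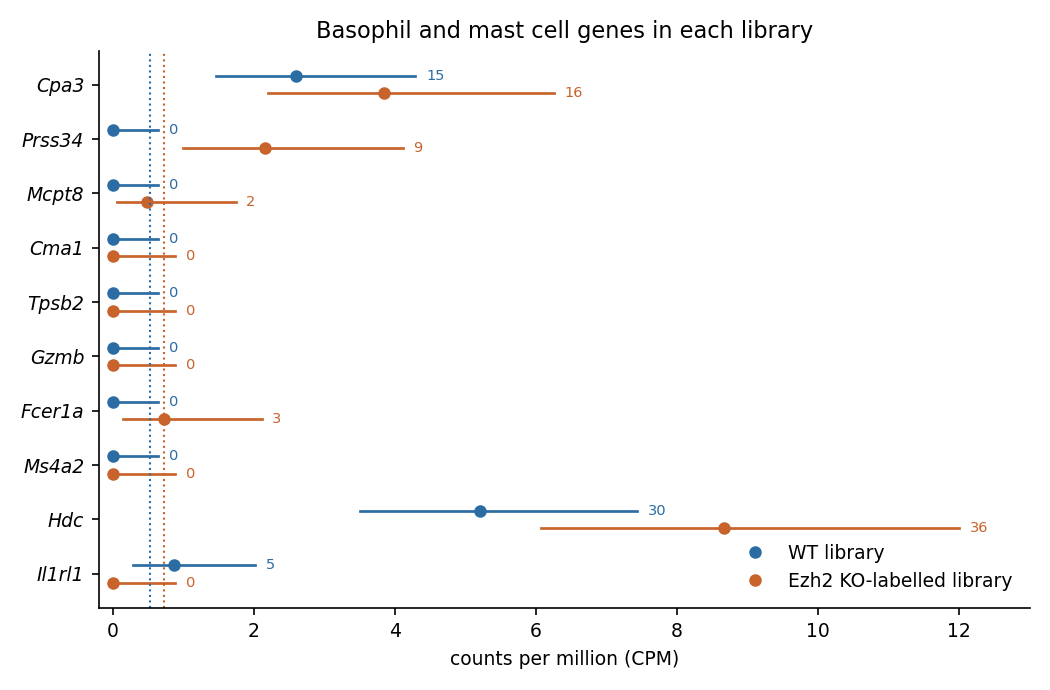
Level of each of the 10 genes in CPM (linear x axis), with exact Poisson 95% intervals as bars and the raw count beside each; blue is the WT library, orange the Ezh2 KO-labelled library, and the dotted lines mark 3 counts in each. *Hdc* and *Cpa3* were above the floor in both libraries, *Prss34* in the Ezh2 KO-labelled library and *Il1rl1* in WT.

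Read together, 3 members passed the filter of a mean of at least 1 CPM, and *Prss34* did so only through the library where it was high. A gene was called when the libraries differed by at least 2-fold with an interval that left out equality. By this rule 1 member was higher in the Ezh2 KO-labelled library, beside 515 of 12588 genes tested (4.09%), 0 were lower, beside 411 genes (3.27%), and 2 were neither. The member called, *Prss34*, was no longer called when a CV of 0.4 between libraries was assumed (exact test of edgeR) or a mean of 10 CPM was asked for, where 12 and 96 of all genes were called higher. Over all genes, 0.88% had 0 counts in WT and more than 3 in the other library, as *Prss34* did, and 1.1% had the opposite pattern, as *Il1rl1* did. With 1 member out of 10 in each, these counts do not set the members apart. The median log2 ratio over all 10 members was 0.25, beside 0 for all genes tested. It was 0 when *Prss34* and *Il1rl1* were put at their ratio to the floor and *Mcpt8* and *Fcer1a*, with no more than 3 counts, at 0. The 4 members without a count in either library enter both medians as 0. Over the 6 with a count the fitted median was 1.21. It includes values of 1.74 for *Mcpt8* and 2.17 for *Fcer1a*, which depend on the 1 added to each normalised count. At 0 counts in both libraries were 4 members (40%), close to the 39.2% of all genes. The members' summed level was 8.68 CPM in WT and 15.9 CPM in the Ezh2 KO-labelled library, and *Hdc* made up more of it than any other member in each.

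To compare genes with each other, counts were divided by exon length (CPM per kilobase of all annotated exons, RPKM). In WT the order was *Cpa3* at 1.72 RPKM (0.96 to 2.83), *Hdc* at 0.815 (0.55 to 1.16) and *Il1rl1* at 0.126 (0.0409 to 0.294), with the other 7 at 0. *Cpa3* and *Hdc* overlapped in their intervals, while *Hdc* and *Il1rl1* did not. In the Ezh2 KO-labelled library the order was *Cpa3* at 2.54 RPKM (1.45 to 4.12), *Prss34* at 1.77 (0.811 to 3.37), *Hdc* at 1.36 (0.949 to 1.88), *Fcer1a* at 0.723 (0.149 to 2.11) and *Mcpt8* at 0.482 (0.0584 to 1.74). All neighbors in that order overlapped. The place of *Hdc* depends on the length used, since its longest protein-coding transcript (2392 bases) is much shorter than its exon union (6389 bases). Over that transcript *Hdc* had 2.18 and 3.62 RPKM against 1.8 and 2.66 for *Cpa3*, so that the order of the pair turned, again with overlapping intervals.

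The wider programme was present, in sum, far above the level of the members. Of 87 other genes of basophils and mast cells, in 6 lists, 13 were at 0 counts in both libraries and 68 were tested. Of the genes tested, 4 were higher and 1 was lower in the Ezh2 KO-labelled library, beside 4.09% and 3.27% of all genes tested. With so few calls, these counts do not set the programme apart, and the same shares stand beside the calls of each list below. Their median log2 ratio was -0.01, and their summed levels were 8870 and 8960 CPM. The lists hold genes of stem cells and other myeloid cells too, and were chosen with results of these libraries known.

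Granule genes fell into a silent and an active set. Of 13 genes for further proteases and for granule loading, 7 were at 0 counts in both libraries, namely *Mcpt1*, *Mcpt2*, *Mcpt4*, *Mcpt9*, *Cma2*, *Tpsab1* and *Tpsg1*, all of them mast cell chymases, tryptases or their relatives. The other 6 were tested and none was called, with log2 ratios from -0.01 to 0.56. *Srgn*, which encodes serglycin, the proteoglycan core that binds proteases and histamine in granules, was at 350 RPKM in WT and 359 RPKM in the other library. *Ctsc*, the protease that activates granule serine proteases, was at 17.6 and 19.3 RPKM. The carrier and the activating enzyme were thus well expressed where these mast cell chymases and tryptases had no counted reads. Reads from stretches shared with another gene can be left out of the counts. Such stretches, of 60 bases, were 35% of *Cma2*, 16.6% of *Mcpt9*, 6.86% of *Tpsg1* and 3.91% of *Mcpt4*. *Mcpt1*, *Mcpt2* and *Tpsab1* had none.

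**Figure D2:**
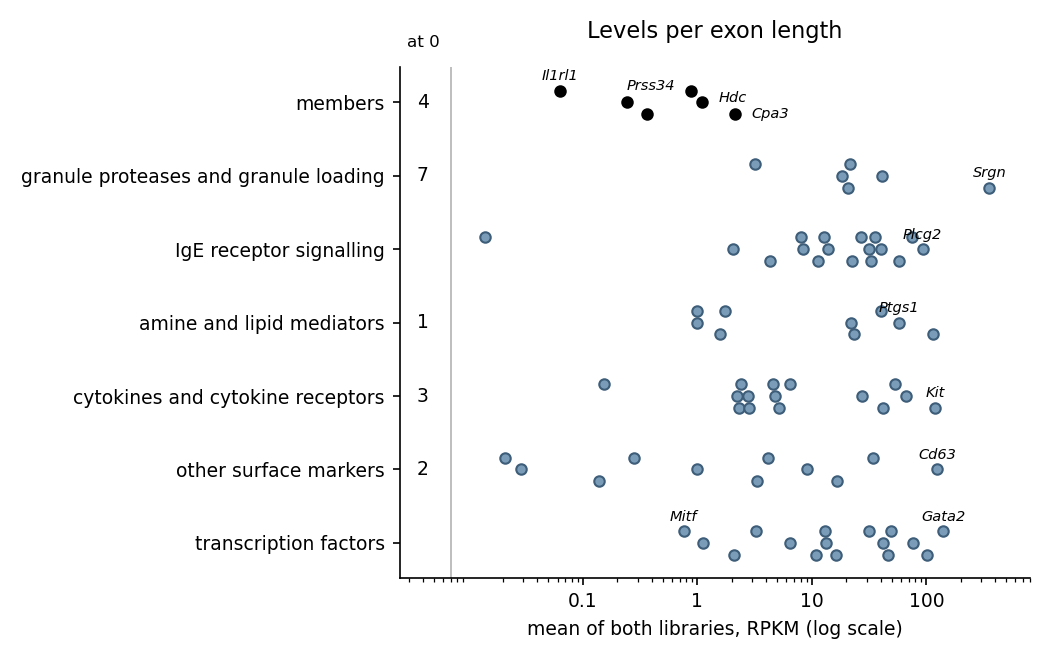
Mean RPKM of both libraries (log x axis) for the members (black) and the 6 programme lists (blue), 1 point for each gene; the numbers in the left column count genes at 0 in both libraries and some genes are named. The members with a count lay below 3 RPKM, and the 7 silent genes of the granule list stood apart from *Srgn*.

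Of 17 genes for signaling below the IgE receptor, 16 were tested, and 1 was higher. *Lat2*, the adaptor also called NTAL, had 11 and 37 counts, with a log2 ratio of 2.08 (1.19 to 3.31). *Plcg2* and *Vav1*, a phospholipase and an exchange factor used by many immune receptors, had the highest normalised counts of the list when both libraries were averaged, with log2 ratios of -0.09 and -0.15. The 16 tested genes had a median log2 ratio of 0.17, and the adaptor gene *Grap2*, added after its values were seen, was not tested, with 1 and 0 counts.

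Among 10 genes for amine and lipid mediators, 9 were tested, with 1 higher and 1 lower. *Alox5*, the 5-lipoxygenase that starts leukotriene synthesis, had 14 and 24 counts and a log2 ratio of 1.15 (0.21 to 2.28). *Ptgs2*, the inducible cyclooxygenase COX-2, had 50 counts in WT and 2 in the Ezh2 KO-labelled library, a log2 ratio of -3.72 (-7.29 to -2.27), the largest in the 6 lists. *Slc18a2*, the vesicular transporter that loads histamine and other amines, was at 44.1 and 36.2 RPKM, well above *Hdc*, and *Ptgs1*, the constitutive cyclooxygenase, was at 58.4 and 57.9 RPKM. *Tph1*, for serotonin synthesis in mast cells, had 0 counts in both.

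Of 18 cytokine and cytokine receptor genes, 14 were tested and 1 was higher. *Il4*, the cytokine for which basophils are best known, had 19 and 35 counts and a log2 ratio of 1.27 (0.48 to 2.21). *Il13*, *Il6* and *Il9r* had 0 counts in both libraries. *Kit*, the stem cell factor receptor on which mast cells depend and by which the HSCs were sorted, was at 118 and 119 RPKM, and *Il4ra* at 28.6 and 26.1 RPKM. Of 13 other surface genes, 7 were tested, and *Cd200r4* was higher with 25 and 38 counts and a log2 ratio of 1.01 (0.28 to 1.83). *Cd63*, which appears on the surface when basophils degranulate, was at 124 and 125 RPKM, and *Itgb7*, an integrin of mast cell progenitors, at 35 and 34 RPKM. *Cd200r3* and *Mrgprb2*, of basophils and of mast cells, had 0 counts in both.

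The transcription factors of these lineages were all detected. All 16 were tested and none was called, with a median log2 ratio of -0.02 and a range from -0.98 to 0.80. *Gata2*, which is needed for HSCs as well as for basophils and mast cells, was at 139 and 141 RPKM, with a log2 ratio of -0.01 (-0.07 to 0.06). *Myb* was at 34.7 and 48.3 RPKM, with a log2 ratio of 0.45 (0.35 to 0.54). *Mitf*, the factor of mast cell granule genes, which was added after its values were seen, was at 1.01 and 0.505 RPKM, from 36 and 13 counts. Its log2 ratio of -0.98 (-2.07 to -0.08) was the lowest of the list, just short of 2-fold, with an interval that left out equality.

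**Figure D3:**
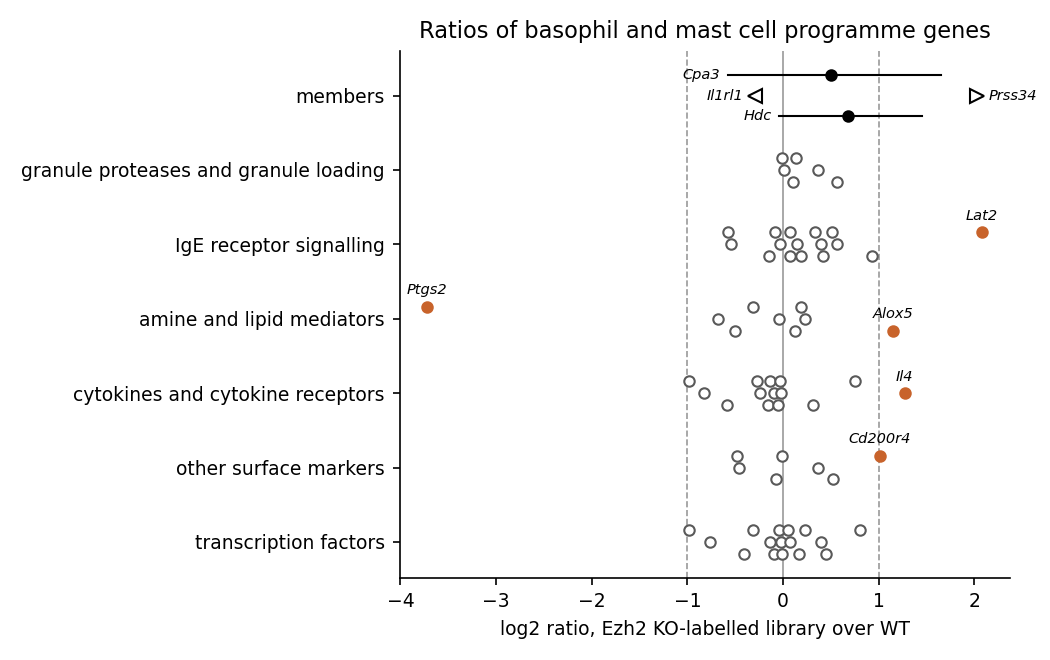
Log2 ratio of normalised counts, Ezh2 KO-labelled library over WT, for the members (top row) and for each tested gene of the 6 programme lists. In the top row, *Cpa3* and *Hdc* are black points with exact 95% intervals. Open triangles there are *Prss34* and *Il1rl1* at their ratio to the floor, and the other members are not drawn. Dashed lines mark 2-fold. In the programme lists, filled points are the 5 called genes, of which *Ptgs2* alone lay below 0.

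Several members lie in known gene clusters, and their neighbors within 250 kb were at 0 counts in part only. *Mcpt8*, *Gzmb* and *Cma1* belong to the chymase and granzyme cluster of chromosome 14. Of 22 neighbors of *Mcpt8*, 16 were at 0 counts in both libraries, while *Ctsg*, the gene of cathepsin G, which lies 14608 bases away, had 122 and 89 counts. Of 16 neighbors of *Gzmb*, many of them the same genes, 13 were at 0 in both. Of 28 neighbors of *Cma1*, 12 were at 0 in both. Of 21 neighbors each of *Prss34* and *Tpsb2*, 11 and 10 were. Over all genes, 39.2% were at 0 counts in both libraries, so most of these numbers alone do not set the loci apart. *Prss34* and *Tpsb2* are 66140 bases apart on chromosome 17. *Tpsab1* and *Tpsg1*, the other tryptase genes near them, had no counts in the library where *Prss34* had 9.

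At the other loci the neighbors differed. Of 9 neighbors of *Fcer1a*, 6 were at 0 counts in both libraries, whereas 5 of the 6 neighbors of *Hdc* and 5 of the 6 of *Il1rl1* had more than 3 counts in a library. *Ms4a3*, a gene of granulocyte and monocyte progenitors that lies 5777 bases from *Ms4a2*, had 39 and 37 counts against 0 for *Ms4a2*. *Slc27a2*, a fatty acid transporter gene 5424 bases from *Hdc*, had 0 counts in WT against 14. *Il18r1*, 137 bases from *Il1rl1*, had 3 and 4 counts, and *Il18rap* in the same cluster had 96 and 66. No member shared exon bases with another annotated gene, and of the members with a count none shared a 60-base stretch with a transcript of another gene. Of those at 0 counts in both libraries, *Ms4a2* shared 1.74% of its 60-base stretches and *Cma1* 3.49%, while *Gzmb* and *Tpsb2* shared none. Reads from shared stretches can be left out of the counts.

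Markers of several other cell types also differed between the libraries. With 1 library in each group, a link between them and *Prss34* could not be tested. Of 9 eosinophil markers, 7 were higher in the Ezh2 KO-labelled library, and their summed level was 1.91 CPM in WT and 781 CPM there. *Prg2* and *Epx*, the genes of eosinophil major basic protein and peroxidase, were at 0 counts in WT, against 2030 and 1000 counts. Of 14 neutrophil markers, 8 were higher and 6 were neither, with sums of 2110 and 3970 CPM, led by *Ngp* (442 and 1110 CPM). The list did not rise as a whole. The 2 with ratios below 0, added after their values were seen, were *Elane*, at -0.76 (-0.94 to -0.58), and *Prtn3*, at -0.07 (-0.19 to 0.05). Of the 14 T and NK cell markers, 3 were higher and 1 lower, with sums of 56 and 63.7 CPM. In the members' own set, by comparison, the summed level was 1.83 times that of WT. The part of these cells in the *Prss34*, *Hdc* or *Cpa3* values was not tested, and in bulk RNA fewer cells of a type and less RNA in each cannot be told apart.

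The remaining lists did not share 1 direction. The 10 erythroid markers summed to 1820 and 2320 CPM with 5 higher, and the 11 B lymphoid markers to 48.4 and 96.9 CPM with 4 higher. The 7 megakaryocyte markers summed to 621 and 354 CPM with 1 lower, *Vwf*. Monocyte and dendritic cell markers, led by *Cd74* and *Lyz2*, summed to 2160 and 1810 CPM with 2 lower. The genes of the surface proteins gated out in the sort (*Cd34*, *Cd48* and *Flt3*) summed to 185 and 236 CPM and none was called. Most of that sum was *Cd34* (166 and 199 CPM), with a log2 ratio of 0.23 (0.10 to 0.37). *Flt3*, with 98 and 140 counts, was at 0.95 (0.57 to 1.34), just short of 2-fold, and *Cd48* at 0.29 (-1.01 to 1.62).

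**Figure D4:**
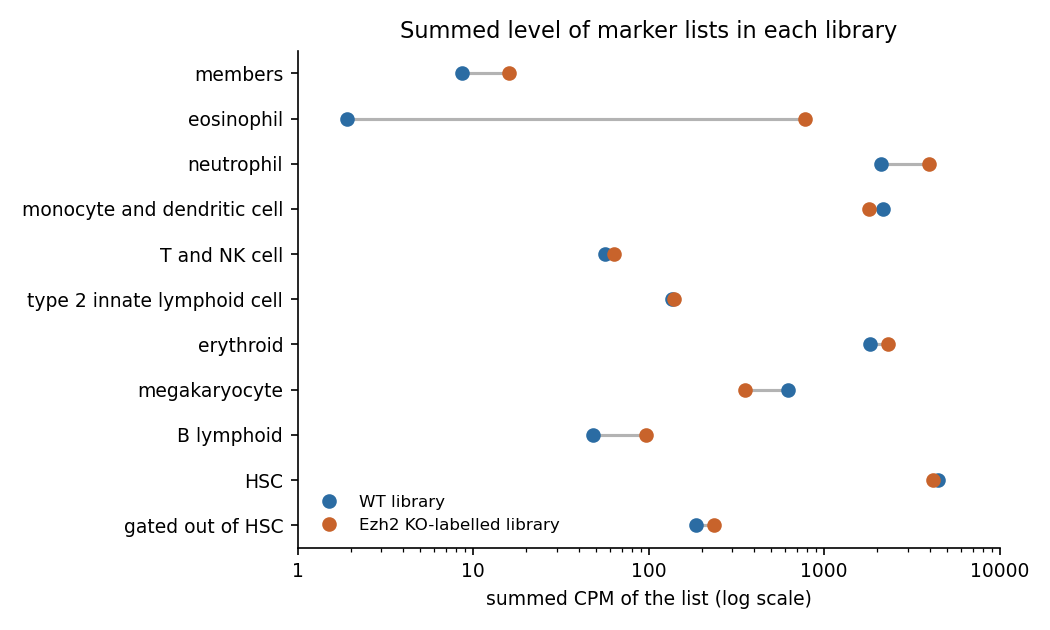
Summed CPM (log x axis) of the 10 members and of each marker list in the WT library (blue) and the Ezh2 KO-labelled library (orange), with no error drawn since there was 1 library in each group. The eosinophil list was at 1.91 and 781 CPM, against 8.68 and 15.9 CPM for the members.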

How the data were processed

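The authors deposited raw counts, 1 value for each gene symbol, without normalisation. Per the labels and the study's methods, cDNA was made with a SMARTer low-input kit, libraries were amplified with 8 PCR cycles and read for 61 cycles, and reads were aligned to mm10 with TopHat2 2.0.13 and Bowtie2 2.1.0. The methods name StringTie for the counts, but the closing entries bear the names of htseq-count, so the counter and its strand setting were not given in the sources used here. These entries, which name no gene (56.1% of the WT file and 56.9% of the other), were left out. Intervals cover counting error only and take each read as a separate molecule. Duplicate PCR reads were not marked by molecular identifiers, so the intervals may be too narrow even for that error.

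Counts were divided by size factors from DESeq2 1.42.0 (1.17 for WT and 0.858 for the Ezh2 KO-labelled library), and ratios were taken as log2 of normalised count plus 1. Genes with a mean of at least 1 CPM were compared. The call rule is given in the report. No test of the conditions was possible with 1 library in each group, and the quasi-likelihood test of edgeR was not fitted for that reason. Exon lengths and positions came from GENCODE M21 (GRCm38). The procedure was tested on simulated counts with counting error only and with 4-fold changes in genes above the level of most members. That test does not cover spread between libraries or genes at low counts. Calculations used scipy 1.17.1, numpy 2.4.6, matplotlib 3.10.9 and pandas 2.3.3 in Python 3.11.15, and edgeR 4.0.16 in R 4.3.3. The members and lists were chosen with earlier results of these data known. Named genes were the members, the called genes and the 2 most abundant genes of each programme list, genes at 0 counts that the text turns on, the 2 most abundant or a defining gene of other lists, neighbors with more than 3 counts, and the checks of the labels. Others are said to be added after their values were seen, and some genes that this rule takes are not reported here. Alternatives covered scaling, pseudocount, depth, filter, call rule and exon length. The longest protein-coding transcript was added as a length after the data were seen.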

Additional observations from a re-analysis of the deposited data

Results flagged for a closer look

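Entries for reads with more than 1 alignment were kept out of the gene counts. They made up 12.3% of all entries in the Ezh2 KO-labelled library (12.25 to 12.29, exact Clopper-Pearson 95% interval) and 10.7% in the WT library (10.73 to 10.77). Whether such a read was entered once or for each alignment was not given, so these need not be shares of reads. The intervals take entries as independent. The value of 12.3% was singled out because it came from entries that no comparison used and stood above the level in the control. No member with a count shared a 60-base stretch with another gene, while *Ms4a2* and *Cma1*, at 0 counts in both libraries, did.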

How the results depend on the processing

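No paired analysis was possible because there was 1 library in each group, and for the same reason no replicate could be left out. The count of 1 member called higher stayed at 1 under scaling by TMM or by total counts, a pseudocount of 0.5 or 5, a WT library thinned to the other depth, no filter, folds of 1.5 and 4, the fold alone and a whole interval past 2-fold. It was 0 with a minimum mean of 10 CPM, which *Prss34* does not reach, and 0 by the exact test of edgeR when a CV of 0.4 was assumed. The *Prss34* call thus rests on the assumption of counting error alone. In the order higher then lower, programme genes numbered 4 and 1 in the report, 0 and 0 at 10 CPM, 7 and 5 at 1.5-fold and 0 and 0 with the assumed CV. Programme genes called higher were 2 with a pseudocount of 5, 1 at 4-fold and 1 with the whole interval past 2-fold. Those called lower were 2 with a pseudocount of 0.5 and 2 after thinning. Over all genes, 515 higher and 411 lower became 96 and 115 at 10 CPM, 963 and 926 at 1.5-fold, 198 and 116 at 4-fold, 166 and 109 with the whole interval, and 12 and 6 with the assumed CV. Of 12 alternatives, *Lat2* and *Ptgs2* kept their calls in 10, *Il4* in 8, and *Alox5* and *Cd200r4* in 7. The median log2 ratio of the members was 1.21 when only the 6 with a count were taken, in place of 0.25. *Hdc* was at 2.18 RPKM in WT over its longest protein-coding transcript, and in the Ezh2 KO-labelled library at 1.92 over its longest transcript and 3.62 over the coding one. No value changed sign. At this depth 3 counts were 0.521 and 0.722 CPM.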

Other observations

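Some programme genes differed by less than 2-fold with intervals that left out equality, and were chosen here after their values were seen. *Il1rap*, the co-receptor that pairs with the product of *Il1rl1* to bind interleukin 33, had 194 counts in WT and 80 in the Ezh2 KO-labelled library, a log2 ratio of -0.83 (-1.23 to -0.45). *Il1rl1* itself, with 5 and 0 counts and overlapping intervals, was too low to be compared, so a change of the receptor as a whole was not shown. *Pla2g4a*, the phospholipase that frees arachidonic acid for the cyclooxygenases, had 1045 and 479 counts, a log2 ratio of -0.68 (-0.84 to -0.53). *Ccl4*, a chemokine made by activated mast cells and many other cells, had 186 and 231 counts, a log2 ratio of 0.75 (0.47 to 1.04). *Id2* had 134 and 172 counts, a log2 ratio of 0.80 (0.47 to 1.14).

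*Gata1*, which acts with *Gata2* in mast cells and erythroid cells and was also chosen after its values were seen, had 44 and 34 counts, or 3.13 and 3.35 RPKM, and a log2 ratio of 0.07 (-0.62 to 0.75).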
